A study of Mus musculus with 70 samples.

Results

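The genes described here encode 7 tetraspanins, Cd9, Cd63, Cd81, Cd82, Cd37, Cd53 and Cd151, taken by gene name from a table of 43346 genes measured in forebrain RNA of mice. All 7 were found, each in 1 row, and the table also listed 24 other tetraspanin genes. RNA was sequenced in 70 libraries of 17 groups, 60 of them RiboTag pulldowns, 6 sorted cells and 4 bulk input.

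All mice carried Cx3cr1CreERT2-IRES-eYFP/+ and Rpl22HA/+ and received tamoxifen for 3 consecutive days, so that Cre, driven from the Cx3cr1 locus, switched on a hemagglutinin-tagged ribosomal protein, and RNA on tagged ribosomes was pulled down from forebrain lysate without dissociation. Cre from this locus also reaches other Cx3cr1-expressing myeloid cells, such as macrophages at the borders of the brain. The LPS study held LPS pulldowns (n = 3, replicates 1, 3 and 4) and saline pulldowns (n = 4), dissociated cells sorted as CD11b+ with low to intermediate CD45 from LPS mice (n = 3) and saline mice (n = 3), and bulk input (n = 4). Titles of the input libraries carry the same S prefix as those of the saline pulldowns. Poly(I:C) pulldowns (n = 3) had saline pulldowns of their own (n = 3). LPS, a component of the bacterial outer membrane, and Poly(I:C), an artificial mimic of viral RNA, were injected into the peritoneum 24 hours before harvest. APP/PS1 mice, a transgenic amyloid model, and their controls were 9 to 10 months old (n = 5 each), as were mice injected with rAAV1-TauP301L, a viral vector for a mutant tau, or with rAAV1-GFP (n = 5 each). Ageing pulldowns came from males at 3 (n = 5), 12 (n = 4) and 24 months (n = 4) and females at 3 (n = 5), 12 (n = 5) and 24 months (n = 4). Sex is labelled in the ageing study alone, and mice of the LPS and Poly(I:C) studies have no labelled age. The design text speaks of animals, and each library was taken as 1 animal. Input, sorted and pulldown libraries of the LPS study share numbers, and the labels do not say whether same-numbered ones came from the same animal.

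Tetraspanins are small proteins that cross the membrane several times and gather integrins, proteases, adhesion molecules and each other into membrane domains. CD9, CD81 and CD63 are widely used markers of extracellular vesicles, and CD63 also sits in late endosomes and lysosomes. CD37 and CD53 are largely restricted to leukocytes, while CD9, CD63, CD81, CD82 and CD151 are found in many cell types, astrocytes and oligodendrocytes among them for several. In mice, Cd9 and Cd63 belong to the genes that rise in microglia around amyloid plaques.

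The promoter windows of 3 genes are shown because Cd9 and Cd63 were called together in the amyloid, tau and ageing studies, and Cd53 was the member most enriched by the pulldown. Each runs from 250 bases before to 50 bases after the RefSeq start on GRCm38.p6, read 5′ to 3′ along the gene, and capitals mark GAGGAA or its reverse complement TTCCTC, a purine-rich core bound by ETS-family factors such as PU.1. The windows lie at chr6:125494711-125495010 on the minus strand for Cd9, at chr10:128909095-128909394 on the plus strand for Cd63 and at chr3:106790100-106790399 on the minus strand for Cd53. The Cd63 window lies inside the gene's listed span of 128908919 to 128912816, so it does not cover the sequence before the listed start.
Cd9: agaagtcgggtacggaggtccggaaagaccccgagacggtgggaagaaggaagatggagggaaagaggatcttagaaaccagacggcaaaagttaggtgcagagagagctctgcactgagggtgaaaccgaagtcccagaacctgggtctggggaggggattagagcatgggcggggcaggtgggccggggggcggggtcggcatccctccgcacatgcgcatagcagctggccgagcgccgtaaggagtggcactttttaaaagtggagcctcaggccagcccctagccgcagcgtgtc
Cd63: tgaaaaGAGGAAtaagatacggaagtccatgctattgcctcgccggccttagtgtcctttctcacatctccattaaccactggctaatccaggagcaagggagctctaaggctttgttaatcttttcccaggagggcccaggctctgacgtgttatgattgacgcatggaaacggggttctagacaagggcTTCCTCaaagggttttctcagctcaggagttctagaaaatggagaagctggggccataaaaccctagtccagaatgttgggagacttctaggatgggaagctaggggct
Cd53: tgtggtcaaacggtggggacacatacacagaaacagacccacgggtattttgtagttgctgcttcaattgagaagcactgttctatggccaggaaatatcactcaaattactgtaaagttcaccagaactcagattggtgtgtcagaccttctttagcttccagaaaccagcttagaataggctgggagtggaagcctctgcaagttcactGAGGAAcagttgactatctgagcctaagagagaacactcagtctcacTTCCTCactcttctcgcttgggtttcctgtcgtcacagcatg

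The windows of Cd63 and Cd53 held 2 GAGGAA matches each, and that of Cd9 held 0. Also searched on both strands were CACGTG, an E-box found in lysosomal gene promoters, and TGANTCA, the AP-1 element, with N for any base. Neither was found in these 3 windows. Among the members not shown, the Cd37 window held 1 CACGTG and 2 GAGGAA matches, and a Cd82 window held 2 GAGGAA matches. The other Cd82 windows and those of Cd81 and Cd151 held none of these motifs. Of 32851 mouse promoter windows of the same length, 28.3% held GAGGAA, 7.15% CACGTG and 7.81% TGANTCA.

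Values are RPKM, reads per kilobase of coding length scaled to library size, so levels of different genes can be compared per length. Log2 fold changes are of RPKM + 1, ± the standard error of limma's model, which damps the changes of scarce transcripts. P values come from limma and are adjusted over every gene tested in the comparison, and a change was called where the adjusted value was under 0.05. A gene was tested where its mean over the libraries of the fit was at least 1 RPKM, which Cd82 missed in the input, Poly(I:C) and tau comparisons. Reads in genes were 20.5 to 47.2 M per library, and the fewest reads of any member in any library were 24, for Cd37 in an input library.

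Some libraries stood apart. Saline pulldowns 3 and 4 of the LPS study were low in microglial RNA, so that the homeostatic microglia list (18 genes such as P2ry12 and Tmem119) had a mean log2 level of 6.13 to 6.60 in LPS pulldowns and 5.09 to 6.60 in saline pulldowns. Sorted cells, despite the gate, carried RNA of monocytes and neutrophils, with a mean log2 level of that list of 5.51 to 6.47 in saline and 5.96 to 7.25 in LPS sorted libraries. Pulldowns still held RNA of other brain cells: the neuron list averaged 3.49 to 3.71 in saline pulldowns of the LPS study, against 4.33 to 4.56 in the input. Agreement between replicates was lower in sorted cells, with correlations of log2 values down to 0.751, against at least 0.905 between pulldowns of a group.

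Every member that was tested was enriched in saline pulldowns over the bulk forebrain, which asks how far each gene's RNA belongs to the tagged cells. The call was made for 6 of 6 members tested, where 56.8% of all genes tested were called higher. A call was thus common among all genes, and the sizes carry more of the information. The leukocyte tetraspanins Cd53 and Cd37 were enriched most and the broadly expressed Cd63 and Cd151 least. All 18 homeostatic genes were called higher, with a median log2 fold change of 4.52, against 0.41 for all genes, and 13 of 15 neuron markers were called lower. Of 12780 genes tested, 1346 were called lower.

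Cd53 (ENSMUSG00000040747, chromosome 3, 106759921 to 106790149), which organises receptors of leukocytes, stood at 89.0, 109.8, 36.0 and 36.6 RPKM in the pulldowns and 1.15, 1.38, 1.62 and 1.40 RPKM in the input. The lowest pulldown was far above the highest input library, and the means were 67.8 ± 37.4 and 1.39 ± 0.191 RPKM (SD, n = 4 each). The log2 fold change was 4.68 ± 0.35 (limma adjusted p = 4.27e-05). Cd37 (ENSMUSG00000030798, chromosome 7, 45233632 to 45239115), the other leukocyte tetraspanin, had 8.25, 6.51, 2.65 and 2.97 RPKM in the pulldowns and 0.0867, 0.0991, 0.132 and 0.210 RPKM in the input. Its means differed 38.6-fold, while the log2 fold change on the RPKM + 1 scale was 2.32 ± 0.28 (limma adjusted p = 0.000123).

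Cd9 (ENSMUSG00000030342, chromosome 6, 125460266 to 125494791), a partner of integrins and of immunoglobulin-family proteins, had 14.7, 14.7, 4.66 and 6.99 RPKM in the pulldowns and 1.32, 1.69, 2.25 and 1.80 RPKM in the input, and its log2 fold change was 1.90 ± 0.31 (limma adjusted p = 0.000607). Cd81 (ENSMUSG00000037706, chromosome 7, 143052739 to 143067934), a widely expressed member of the family, had 85.1, 81.5, 32.2 and 39.1 RPKM in the pulldowns and 17.8, 16.1, 22.2 and 19.2 RPKM in the input, with a log2 fold change of 1.49 ± 0.31 (limma adjusted p = 0.00222). Neither gene's groups overlapped, and Cd81 was the most abundant tetraspanin of the 7 in the input. Cd63 (ENSMUSG00000025351, chromosome 10, 128908919 to 128912816) had 13.1, 13.9, 4.18 and 6.79 RPKM in the pulldowns and 3.43, 3.18, 4.45 and 3.66 RPKM in the input. Its groups overlapped through saline pulldown 3, and the log2 fold change of 1.04 ± 0.31 (limma adjusted p = 0.0138) became 0.57 (adjusted p = 0.105) under limma when libraries were scaled by the median of ratios, which moved the median of all genes to 0.01, while the other calls held. Limma's voom fit, run on the reads recovered from the RPKM steps, did not call Cd63 either (0.66, limma adjusted p = 0.12).

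Cd151 (ENSMUSG00000025510, chromosome 7, 141467362 to 141471479), the partner of laminin-binding integrins, had 4.39, 4.06, 2.70 and 2.08 RPKM in the pulldowns and 1.37, 1.03, 1.32 and 1.33 RPKM in the input, with a log2 fold change of 0.89 ± 0.17 (limma adjusted p = 0.00145). Cd82 (ENSMUSG00000027215, chromosome 2, 93419111 to 93463140), known in cancer as a metastasis suppressor, was scarce, at 1.45, 1.18, 0.338 and 0.701 RPKM in the pulldowns and 0.153, 0.216, 0.160 and 0.167 RPKM in the input. Its groups did not overlap, although it was not tested. Values of 6 of 7 members, counting the untested Cd82, did not overlap between pulldown and input, where 61.4% of genes tested did not overlap.

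**Figure D1:**
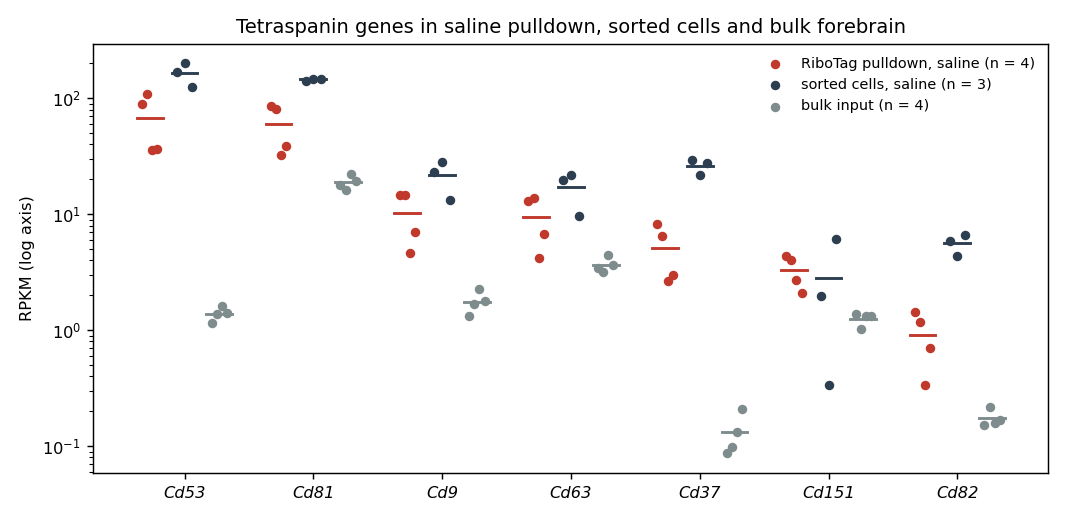
RPKM on a log axis of the 7 tetraspanin genes in saline RiboTag pulldowns (n = 4), saline sorted cells (n = 3) and bulk input (n = 4), with points for libraries and bars for means. Cd53 stands at 36.0 to 109.8 RPKM in pulldowns and at 1.15 to 1.62 RPKM in the input, the widest gap of the 7 genes.

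Of the 24 other tetraspanins, 13 were tested against the input, 5 were called higher and 7 lower, with a median log2 fold change of -0.50, against 1.70 for the 6 members tested. Among all 12780 genes tested, 7256 were called higher and 1346 lower. Upk1b, a uroplakin otherwise known from bladder lining, was enriched by 2.21 ± 0.30 and Tspan4, known from migrating cells, by 0.98 ± 0.10. Tspan12, a cofactor of the norrin receptor in vessels, was depleted by a log2 fold change of -0.74 ± 0.10. Among 13 tested partner genes of tetraspanins 12 were called higher, led by the integrin chains Itgam at 4.21 ± 0.31 and Itgb2 at 3.50 ± 0.29. Of 20 genes of exosome and endosome sorting 10 were called higher and 1 lower, where 56.8% of all genes tested were called higher. The lysosomal glycoprotein gene Cd68 of that list had 4.78 ± 0.32.

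Against sorted cells, saline pulldowns had lower levels of 4 members, Cd81, Cd82, Cd37 and Cd53, where 12.9% of all genes tested were called lower. Cd37 had 8.25, 6.51, 2.65 and 2.97 RPKM in pulldowns and 29.5, 21.6 and 27.7 RPKM in sorted cells, a log2 fold change of -2.27 ± 0.38 (limma adjusted p = 0.00199). Cd82 had 0.338 to 1.45 RPKM in pulldowns and 4.36 to 6.68 RPKM in sorted cells, a log2 fold change of -1.81 ± 0.26 (limma adjusted p = 0.000937). Neither gene's groups overlapped, and leaving out any single library did not end either call. Monocyte and neutrophil markers moved with them: 14 of 14 tested were lower in pulldowns, with list means of 0.48 to 1.01 in pulldowns and 5.51 to 6.47 in sorted cells, and their part in the result was not tested.

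Cd81 had 32.2 to 85.1 RPKM in pulldowns and 142 to 148 RPKM in sorted cells, a log2 fold change of -1.40 ± 0.39 (limma adjusted p = 0.0222). Cd53 had 36.0 to 109.8 RPKM in pulldowns and 125 to 199.6 RPKM in sorted cells, with a log2 fold change of -1.41 ± 0.46 (limma adjusted p = 0.0421). These calls were less firm. Cd81 lost its call without saline sorted library 2 or 3 or saline pulldown 4, and Cd53 without any sorted library or without saline pulldown 3 or 4, with adjusted p values up to 0.0614 and 0.11. Cd9, Cd63 and Cd151 were not called, with log2 fold changes of -1.08 ± 0.45, -0.84 ± 0.46 and 0.46 ± 0.54, and their groups overlapped. Values of 4 of 7 members did not overlap, as for 48% of genes tested. The homeostatic list was also lower in pulldowns, with 15 of 18 genes called and a median log2 fold change of -1.81. The members' own median was -1.40, against 0.25 for all genes. Scaling by the median of ratios moved the median of all genes to -0.01, and Cd9 was then called lower as well (-1.39, limma adjusted p = 0.0223).

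After LPS, Cd63, Cd81 and Cd151 were higher in pulldowns, where 12% of all genes tested were called higher. In bulk pulldowns a change in the number of tagged cells and a change in RNA per cell cannot be told apart. Cd63 stood at 28.8, 34.1 and 33.4 RPKM after LPS and 13.1, 13.9, 4.18 and 6.79 RPKM after saline, with means of 32.1 ± 2.88 (SD, n = 3) and 9.48 ± 4.75 RPKM (SD, n = 4). Every LPS library was above every saline library by a wide margin, and the log2 fold change was 1.78 ± 0.36 (limma adjusted p = 0.0149).

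Cd81 had 113, 176 and 160.5 RPKM after LPS and 85.1, 81.5, 32.2 and 39.1 RPKM after saline, a log2 fold change of 1.42 ± 0.39 (limma adjusted p = 0.0478). Cd151 had 5.16, 7.59 and 6.82 RPKM after LPS and 4.39, 4.06, 2.70 and 2.08 RPKM after saline, a log2 fold change of 0.83 ± 0.22 (limma adjusted p = 0.042). Their groups did not overlap either, but LPS library 1 lay close to the higher saline libraries. Of the 7 members 3 had groups that did not overlap, as for 26.5% of genes tested.

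Saline pulldowns 3 and 4, the libraries low in microglial RNA, widened these differences. Without both, in a comparison added after the data were seen, Cd63 kept its call at a log2 fold change of 1.19 (limma adjusted p = 0.01), while Cd81 had 0.81 (adjusted p = 0.0841) and Cd151 0.51 (adjusted p = 0.132). With the homeostatic level of each library as a covariate, also added later, all 3 calls held, at 1.33 for Cd63, 0.94 for Cd81 and 0.58 for Cd151 (limma adjusted p = 0.00282, 0.00749 and 0.0365). Leaving out LPS library 3 or 4 ended all 3 calls, leaving out LPS library 1 ended that of Cd81, and leaving out saline library 3 or 4 ended those of Cd81 and Cd151. Markers of other cells also moved with the groups. The perivascular macrophage list had 3 of 8 genes called higher, with list means of 2.67 to 3.01 after LPS and 1.42 to 2.61 after saline, and the endothelial list 1 of 5, with 1.35 to 1.45 after LPS and 1.14 to 1.22 after saline. Their part in the result was not tested.

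Fitted together with the sorted libraries, which share a wider spread, none of the 3 was called (limma adjusted p = 0.117, 0.0621 and 0.663). Without the filter on low values 0 members were called, with adjusted p = 0.0543, 0.124 and 0.109 from limma for Cd63, Cd81 and Cd151. The median log2 fold change of all genes was 0.11, and scaling by the median of ratios, which moved it to -0.01, left Cd63 and Cd151 called and Cd81 at 1.26 (limma adjusted p = 0.0521).

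Cd9 gave 8.58, 10.4 and 10.0 RPKM after LPS and 14.7, 14.7, 4.66 and 6.99 RPKM after saline, with the LPS libraries inside the saline range. Its log2 fold change was 0.05 ± 0.35, with an interval of 2 standard errors from -0.66 to 0.76, which leaves room for a change of either sign. Saline libraries 1 and 2 lay above all LPS libraries, and without libraries 3 and 4 the log2 fold change was -0.56 (limma adjusted p = 0.0609). It was -0.41 with the homeostatic covariate and -0.09 with median-of-ratios scaling, neither called. Cd53 had a log2 fold change of 0.77 ± 0.42, Cd37 of 0.77 ± 0.33 and Cd82 of 0.54 ± 0.22, none of them called.

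In sorted cells no member was called after LPS by limma, where 0.627% of genes were called, nor by the voom fit of recovered reads, and 2 members had an unadjusted p under 0.05. Cd81 had 280.1, 249 and 273 RPKM after LPS and 142, 147 and 148 RPKM after saline, a log2 fold change of 0.87 ± 0.22 (limma adjusted p = 0.154). Cd151 had 14.02, 13.4 and 17.5 RPKM after LPS and 1.98, 0.336 and 6.15 RPKM after saline, a log2 fold change of 2.38 ± 0.63 (limma adjusted p = 0.164). Both had groups that did not overlap, as had 19.4% of genes tested, and Cd151 was called when sorted and pulldown libraries shared a fit (limma adjusted p = 0.0119). The median of all genes was 0.25 here, and scaling by the median of ratios, which moved it to -0.01, brought Cd81 to 0.54, Cd151 to 2.10 and Cd53 to -0.02, none of them called. Cd63 stood at 42.8, 52.8 and 13.99 RPKM after LPS and 19.8, 21.9 and 9.64 RPKM after saline, so that LPS sorted library 3 fell inside the saline range. Cd9 had a log2 fold change of -0.09 ± 0.40. The monocyte and neutrophil list had mean log2 levels of 5.96, 7.25 and 6.17 in LPS sorted libraries 1, 2 and 3. Library 2 was thus highest for this list as for Cd63. The part of these cells in the values was not tested.

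No member was called for a difference in LPS response between pulldowns and sorted cells by limma's interaction term, where 0.259% of genes were called, and 1 member, Cd151, had an unadjusted p under 0.05. The difference of log2 fold changes for Cd151 was -1.55 ± 0.66 (limma adjusted p = 0.515), with an interval of 2 standard errors from -2.86 to -0.24. For Cd63 the interval ran from -0.59 to 2.28, which covers sizeable differences either way.

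After Poly(I:C), Cd81, Cd53 and Cd63 rose in pulldowns, where 6.27% of genes tested were called higher. Cd81 had 39.1, 45.1 and 47.0 RPKM after Poly(I:C) and 18.2, 19.5 and 17.2 RPKM after saline, a log2 fold change of 1.21 ± 0.13 (limma adjusted p = 0.00105). Cd53 had 29.0, 25.3 and 35.8 RPKM after Poly(I:C) and 12.2, 12.9 and 11.8 RPKM after saline, a log2 fold change of 1.21 ± 0.15 (limma adjusted p = 0.00201). For both genes even the lowest Poly(I:C) library was well above every saline library. Cd63 had 7.62, 5.86 and 8.89 RPKM after Poly(I:C) and 3.83, 2.94 and 4.38 RPKM after saline, a log2 fold change of 0.84 ± 0.17 (limma adjusted p = 0.0229), which lost its call without saline library 1 or 2 or Poly(I:C) library 1 (adjusted p up to 0.0956).

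Cd9 had 2.97, 2.99 and 3.24 RPKM after Poly(I:C) and 2.66, 2.31 and 2.37 RPKM after saline, and its log2 fold change of 0.24 ± 0.09 was not called (limma adjusted p = 0.231). Cd37 had 0.35 ± 0.11 and Cd151 0.24 ± 0.18, also not called. In 6 of 7 members, all but Cd151 and counting the untested Cd82, the Poly(I:C) libraries lay above the saline libraries. Groups did not overlap for 22.2% of genes tested. Homeostatic genes moved with the members: 11 of 18 were called higher, with list means of 4.64 to 4.99 after Poly(I:C) and 3.94 to 3.99 after saline. With that level as a covariate, added after the data were seen, none of the 3 calls held in limma (adjusted p = 0.153 for Cd81 at 0.89, 0.709 for Cd53 at 0.17 and 0.875 for Cd63 at -0.15). The list's level itself separates the groups completely, so its part and that of the treatment cannot be told apart.

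Between LPS and Poly(I:C) effects none of the 6 members tested was called as different by limma's interaction term, where 0.194% of genes were called and 0 members had an unadjusted p under 0.05. For Cd63 the LPS effect exceeded the Poly(I:C) effect by 0.95 ± 0.45, with an interval from 0.05 to 1.84, and for Cd9 the difference was -0.19 ± 0.42. Of tetraspanin partners, Ifitm3, an interferon-induced antiviral membrane protein, rose by 3.15 ± 0.36 after LPS in pulldowns, by 2.39 ± 0.31 in sorted cells and by 4.83 ± 0.21 after Poly(I:C). The partner list had 2 of 15 genes called higher after LPS in pulldowns, 2 of 15 in sorted cells and 5 of 13 after Poly(I:C). Exosome and endosome sorting genes had 2 of 19, 0 of 18 and 4 of 19 called higher, with Rab27a, a regulator of vesicle release, at 1.01 ± 0.19 after LPS in pulldowns. Of all genes tested 12% were called higher after LPS in pulldowns and 6.27% after Poly(I:C), and 0.627% were called in sorted cells. None of the other tetraspanins was called after LPS in pulldowns or after Poly(I:C), and in sorted cells Upk1b fell by 3.15 on the log2 scale after LPS (limma adjusted p = 0.043).

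**Figure D2:**
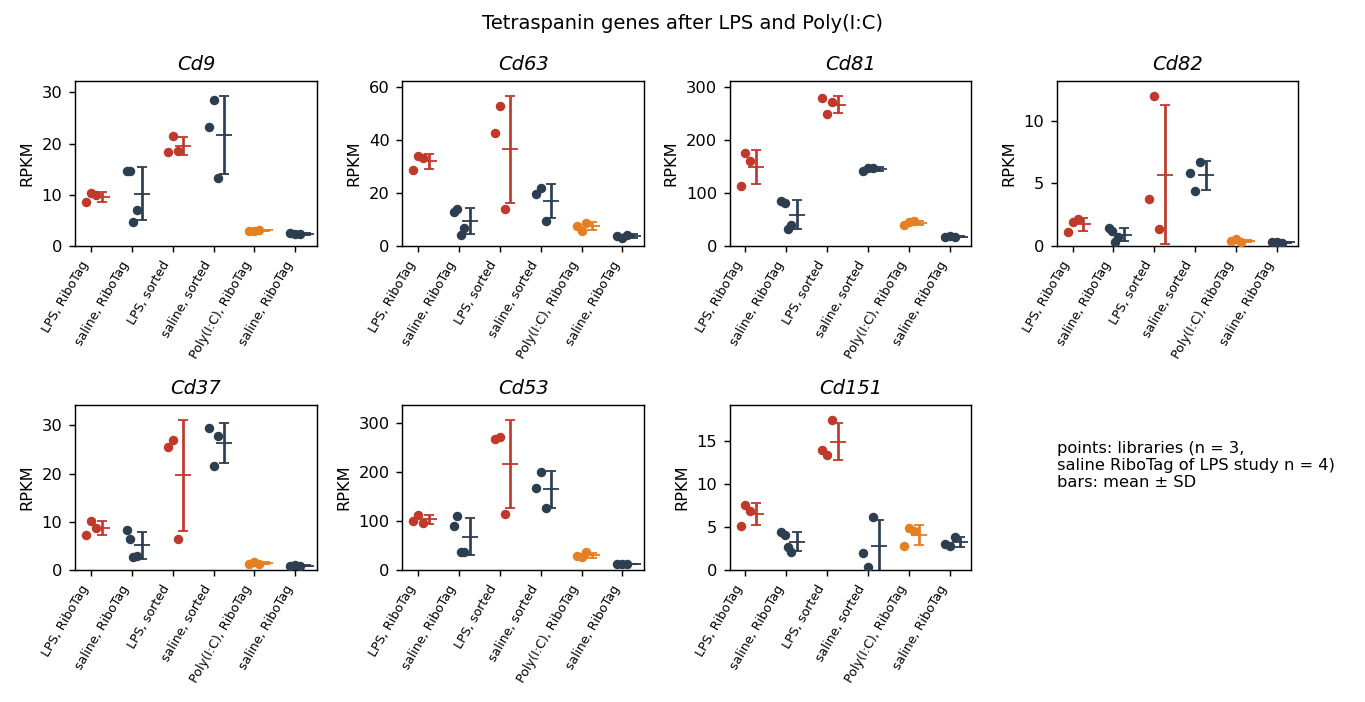
RPKM of the 7 tetraspanin genes after LPS and saline in pulldowns and in sorted cells, and after Poly(I:C) and saline in pulldowns, with points for libraries and bars for the mean ± SD (n = 3, and n = 4 for saline pulldowns of the LPS study). Cd63 is at 28.8 to 34.1 RPKM in LPS pulldowns and at 4.18 to 13.9 RPKM in saline pulldowns, while Cd9 overlaps.

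In APP/PS1 mice Cd9 and Cd63 rose and the 5 other members were not called. This was 2 of 7 members where 0.52% of genes tested were called higher. Cd9 had 24.7, 23.1, 22.5, 17.8 and 26.1 RPKM in APP/PS1 pulldowns and 14.1, 14.4, 14.8, 14.03 and 12.3 RPKM in control pulldowns, with means of 22.9 ± 3.14 and 13.9 ± 0.962 RPKM (SD, n = 5 each). Every APP/PS1 library was above every control library, and the log2 fold change was 0.67 ± 0.09 (limma adjusted p = 0.00456). Cd63 had 22.8, 22.9, 22.4, 17.8 and 25.2 RPKM in APP/PS1 pulldowns and 12.7, 14.8, 15.7, 12.4 and 14.1 RPKM in control pulldowns, a log2 fold change of 0.63 ± 0.09 (limma adjusted p = 0.00599). The same APP/PS1 library, replicate 4, was lowest for both genes, and leaving out any 1 of the 10 libraries ended neither call.

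Of the members not called, Cd81 had 79.2 to 96.4 RPKM in APP/PS1 and 68.7 to 83.8 RPKM in control pulldowns, a log2 fold change of 0.23 ± 0.07 (limma adjusted p = 0.101). Cd37 had 6.49 to 8.60 RPKM in APP/PS1 and 4.54 to 6.86 RPKM in control pulldowns, a log2 fold change of 0.37 ± 0.10 (limma adjusted p = 0.0944). Both missed the threshold here and passed it in limma's voom fit of the reads recovered from the RPKM steps, with adjusted p = 0.0136 for Cd81 and 0.0119 for Cd37. Cd53 had 0.14 ± 0.06, Cd82 0.08 ± 0.06 and Cd151 -0.10 ± 0.05. Values of 2 of 7 members did not overlap between groups, as for 5.38% of genes tested.

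In mice injected with rAAV1-TauP301L Cd9 and Cd63 rose as well, 2 of 6 members tested, where 0.7% of genes were called higher. Cd9 had 11.7, 12.3, 13.9, 11.7 and 11.46 RPKM in TauP301L pulldowns and 5.93, 6.36, 6.55, 9.20 and 6.0 RPKM in GFP pulldowns, a log2 fold change of 0.77 ± 0.10 (limma adjusted p = 0.00659). Cd63 had 13.3, 11.6, 12.5, 10.6 and 10.7 RPKM in TauP301L pulldowns and 4.71, 4.64, 5.50, 7.86 and 5.54 RPKM in GFP pulldowns, a log2 fold change of 0.95 ± 0.11 (limma adjusted p = 0.00395). The groups did not overlap for either gene, as for 4.57% of genes tested, and GFP library 5 stood above the other GFP libraries for both. Neither call was lost on leaving out any 1 of the 10 libraries. Neuron markers moved with the groups: 3 of 15 were called lower, with list means of 3.75 to 3.91 in TauP301L and 3.96 to 4.08 in GFP pulldowns. Among all 12864 genes tested, 71 were called lower. With a covariate for the mean of 39 neuron, astrocyte and oligodendrocyte markers Cd9 had 0.77 and Cd63 0.97, both called. The astrocyte list had 2.77 to 2.90 in TauP301L and 2.72 to 2.85 in GFP pulldowns, so this covariate did not follow the neuron shift alone. The part of the neuron shift was not tested.

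Cd81 had 55.0 to 66.1 RPKM in TauP301L and 38.7 to 62.9 RPKM in GFP pulldowns, a log2 fold change of 0.33 ± 0.11 (limma adjusted p = 0.174), and Cd53 had 0.20 ± 0.07 (adjusted p = 0.212). The voom fit called both (adjusted p = 0.00799 and 0.0275), and Cd81 was also called without GFP library 5 (limma adjusted p = 0.0322). Cd151 had 0.11 ± 0.06, and Cd37 was nearly level, at 3.46 ± 0.250 RPKM in TauP301L and 3.47 ± 0.634 RPKM in GFP pulldowns (SD, n = 5 each), with an interval of 2 standard errors from -0.17 to 0.18 around a log2 fold change of 0.0038. Cd82 stood at 0.525 to 0.951 RPKM in TauP301L and 0.454 to 0.730 RPKM in GFP pulldowns and was not tested.

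No member was called as different between the APP/PS1 and TauP301L effects by limma's interaction term, where 0.847% of genes were called. An unadjusted p under 0.05 was found for 3 members, Cd63, Cd37 and Cd151. The APP/PS1 effect minus the TauP301L effect was -0.10 ± 0.14 for Cd9, with an interval from -0.38 to 0.18, and -0.32 ± 0.15 for Cd63, with an interval from -0.62 to -0.01 (limma adjusted p = 0.79 and 0.328). For Cd37 it was 0.37 ± 0.15 (limma adjusted p = 0.226).

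Within the summed RPKM of the 7 genes the pair took a larger part, which restates the same values as shares. Cd9 made up 11 to 12.8% of the sum in APP/PS1 pulldowns and 8.17 to 9.84% in control pulldowns, and 8.93 to 9.51% in TauP301L and 5.62 to 7.20% in GFP pulldowns. Cd63 made up 10.95 to 12.4% in APP/PS1 and 8.60 to 9.59% in control pulldowns, and 8.17 to 10.3% in TauP301L and 4.96 to 6.04% in GFP pulldowns. The homeostatic list had 0 of 18 genes called by limma in either study, with list means of 5.55 to 5.75 in APP/PS1 and 5.46 to 5.70 in control pulldowns, and 5.12 to 5.32 in TauP301L and 4.86 to 5.38 in GFP pulldowns. With that level as a covariate Cd9 and Cd63 were called in both studies, at 0.62 and 0.54 for APP/PS1 and 0.67 and 0.83 for TauP301L. Here too the number of tagged cells and the RNA per cell cannot be told apart, and their parts were not tested.

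**Figure D3:**
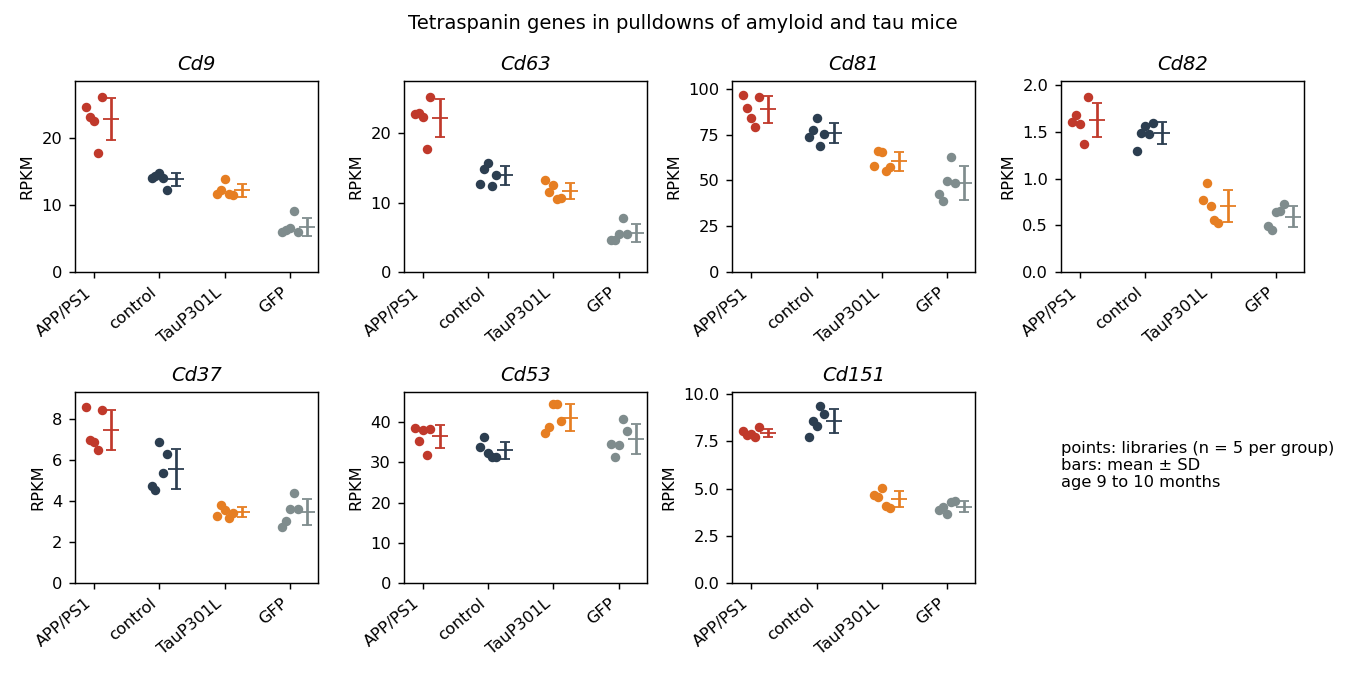
RPKM of the 7 tetraspanin genes in APP/PS1, control, TauP301L and GFP pulldowns, with points for libraries and bars for the mean ± SD (n = 5 per group). Cd9 and Cd63 are separated in both studies, with Cd9 at 17.8 to 26.1 RPKM in APP/PS1 and 12.3 to 14.8 RPKM in control pulldowns.

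The other tetraspanins had 0 of 14 genes called by limma in either study, with medians of -0.05 in APP/PS1 and -0.04 in TauP301L mice, against -0.03 and -0.01 for all genes tested. Among 16 partner genes tested in APP/PS1 mice and 15 in TauP301L mice, 1 was called in each, Clec7a, the fungal glucan receptor dectin-1, at 1.57 ± 0.16 and 1.95 ± 0.14. Of 19 exosome and endosome sorting genes, Cd68 was called in APP/PS1 mice at 0.73 ± 0.08, and 0 were called in TauP301L mice, where Cd68 had 0.43 ± 0.12 (limma adjusted p = 0.0993). The disease-associated microglia list, which holds neither Cd9 nor Cd63 here, had 13 of 18 genes called higher in APP/PS1 and 13 of 17 in TauP301L mice, with medians of 0.75 and 0.71. Of all genes tested 0.52% were called higher in APP/PS1 and 0.7% in TauP301L mice.

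Across age Cd9 and Cd63 rose at 12 months and further at 24 months in both sexes. In males Cd9 had 6.62, 5.87, 7.19, 6.44 and 6.24 RPKM at 3 months, 8.08, 9.37, 10.2 and 9.17 RPKM at 12 months and 16.0, 15.5, 14.6 and 16.4 RPKM at 24 months. In females Cd9 had 5.00, 6.12, 6.32, 6.23 and 5.95 RPKM at 3 months, 7.81, 8.27, 7.98, 6.51 and 8.75 RPKM at 12 months and 18.3, 20.7, 19.8 and 15.9 RPKM at 24 months. The 3 ages did not overlap in either sex, and the larger step was the one from middle to old age. Between 24 and 3 months the log2 fold change of Cd9 was 1.15 ± 0.08 in males and 1.50 ± 0.08 in females (limma adjusted p = 8.03e-11 and 2.81e-13). Between 12 and 3 months it was 0.45 ± 0.08 in males and 0.35 ± 0.07 in females (limma adjusted p = 0.000833 and 0.0107).

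Cd63 in males had 6.05, 5.75, 7.01, 6.35 and 6.28 RPKM at 3 months, 9.06, 9.81, 8.55 and 8.85 RPKM at 12 months and 17.9, 14.6, 19.1 and 16.2 RPKM at 24 months. In females it had 5.71, 6.65, 6.28, 6.71 and 5.79 RPKM at 3 months, 9.42, 9.61, 7.75, 8.26 and 9.25 RPKM at 12 months and 21.6, 23.6, 24.8 and 19.7 RPKM at 24 months. Again the ages were fully separated, and all old females were above all old males. Between 24 and 3 months the log2 fold change of Cd63 was 1.29 ± 0.07 in males and 1.69 ± 0.07 in females (limma adjusted p = 8.97e-12 and 1.17e-14). Between 12 and 3 months it was 0.47 ± 0.07 in males and 0.45 ± 0.07 in females (limma adjusted p = 0.000373 and 0.00129).

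Of the 7 members, 6 were called higher at 24 than at 3 months in males, where 17.2% of genes tested were called higher, and those 6 also in females, where it was 16.7%. Cd81 had a log2 fold change of 0.73 ± 0.09 in both sexes, at 83.2 to 87.9 RPKM in males of 24 months against 42.7 to 62.4 RPKM at 3 months, and 79.8 to 94.4 RPKM in females of 24 months against 45.6 to 58.5 RPKM at 3 months. Cd37 had 0.65 ± 0.10 in males and 0.60 ± 0.10 in females, Cd53 had 0.47 ± 0.09 and 0.46 ± 0.09, and Cd82 had 0.45 ± 0.07 and 0.35 ± 0.07. Cd151 was the exception, at 0.10 ± 0.08 in males and 0.21 ± 0.08 in females (limma adjusted p = 0.403 and 0.0788), with overlapping groups. The 6 called members had groups that did not overlap in males and in females, as for 16.9% and 19.6% of genes tested.

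At 12 months 5 members, Cd9, Cd63, Cd81, Cd37 and Cd53, were called higher in males, where 12.4% of genes were called higher, and 2, Cd9 and Cd63, in females, where it was 2.56%. In males Cd81 had 0.47 ± 0.09, Cd37 0.53 ± 0.10 and Cd53 0.32 ± 0.09, the last losing its call without male library 5 of 3 months or library 2 or 3 of 12 months (adjusted p up to 0.112). In females the same genes had 0.26 ± 0.09, 0.28 ± 0.09 and 0.08 ± 0.09. Groups did not overlap for 3 members in males and 2 in females, as for 11% and 4.82% of genes tested. In males these were Cd9, Cd63 and Cd82, which was not called, and in females Cd9 and Cd63. The groups of Cd81, Cd37 and Cd53 overlapped in males despite their calls. Fitting only the groups of 3 and 12 months left 3 calls in males and 1 in females.

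Homeostatic genes moved with age too. In males 17 of 18 were called higher at 24 months, with list means of 5.30 to 5.49 at 24 and 4.69 to 5.00 at 3 months, and in females 8 of 18, with 5.29 to 5.48 at 24 and 4.84 to 5.15 at 3 months. The level of that list separated 24 from 3 months completely in both sexes, so its part and that of age cannot be told apart. With that level as a covariate, added after the data were seen, Cd9 and Cd63 were called at 24 months in both sexes. They had 0.79 and 1.07 in males and 1.25 and 1.54 in females. Cd81 was called in females alone, at 0.31 (limma adjusted p = 0.0167), against 0.12 in males (adjusted p = 0.559). Cd37 had 0.03 in males and 0.17 in females, Cd53 had -0.09 and 0.07, and Cd82 had 0.25 and 0.20, none of them called. Other brain cells shifted less evenly: 7 of 15 neuron markers were called lower in males of 24 months, and 8 of 12 oligodendrocyte markers higher in females, with list means of 3.23 to 3.41 at 24 and 2.93 to 3.11 at 3 months. Among all 14198 genes tested, 882 were called lower in males of 24 months. Astrocyte list means were 3.07 to 3.21 in females of 24 months and 2.93 to 3.02 at 3 months, with 3 of 11 genes called higher. The perivascular macrophage list had 4 of 6 genes called higher in males, with list means of 1.54 to 1.65 at 24 and 1.16 to 1.40 at 3 months, and 3 of 6 in females, with 1.48 to 1.85 at 24 and 1.26 to 1.49 at 3 months, and its part in the results was not tested. The covariate for 39 markers averages neurons, astrocytes and oligodendrocytes, so it does not follow any of these shifts alone. With it all 6 calls held in males, and in females Cd82 had 0.23 (limma adjusted p = 0.0992) and Cd53 0.32 (adjusted p = 0.0808). At 12 months none of the 5 calls in males held with the homeostatic covariate, whose level separated 12 from 3 months completely in males too. In females Cd9 and Cd63 kept their calls with it, at 0.28 and 0.40 (limma adjusted p = 0.0215 and 0.00404).

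As shares of the summed RPKM of the 7 genes, Cd63 made up 9.46 to 11.7% in males of 24 months and 5.63 to 7.54% at 3 months, and 12.1 to 13.9% in females of 24 months and 5.74 to 7.12% at 3 months. The share of Cd53 was smaller at 24 months, although its RPKM rose. In males it was 15.7 to 18.1% at 24 months and 19.5 to 23.6% at 3 months. In females it was 15.9 to 16.7% at 24 months and 20.5 to 22.0% at 3 months. Cd151 also had a smaller share at 24 months, 3.36 to 4.02% in males and 3.30 to 3.82% in females, against 5.34 to 6.57% and 4.56 to 6.24% at 3 months. Cd81 made up 53.7 to 54.1% in males of 24 months, inside the 52.2 to 58.1% of 3 months, and 50.9 to 53.0% in females of 24 months, below the 54.9 to 56.4% of 3 months.

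**Figure D4:**
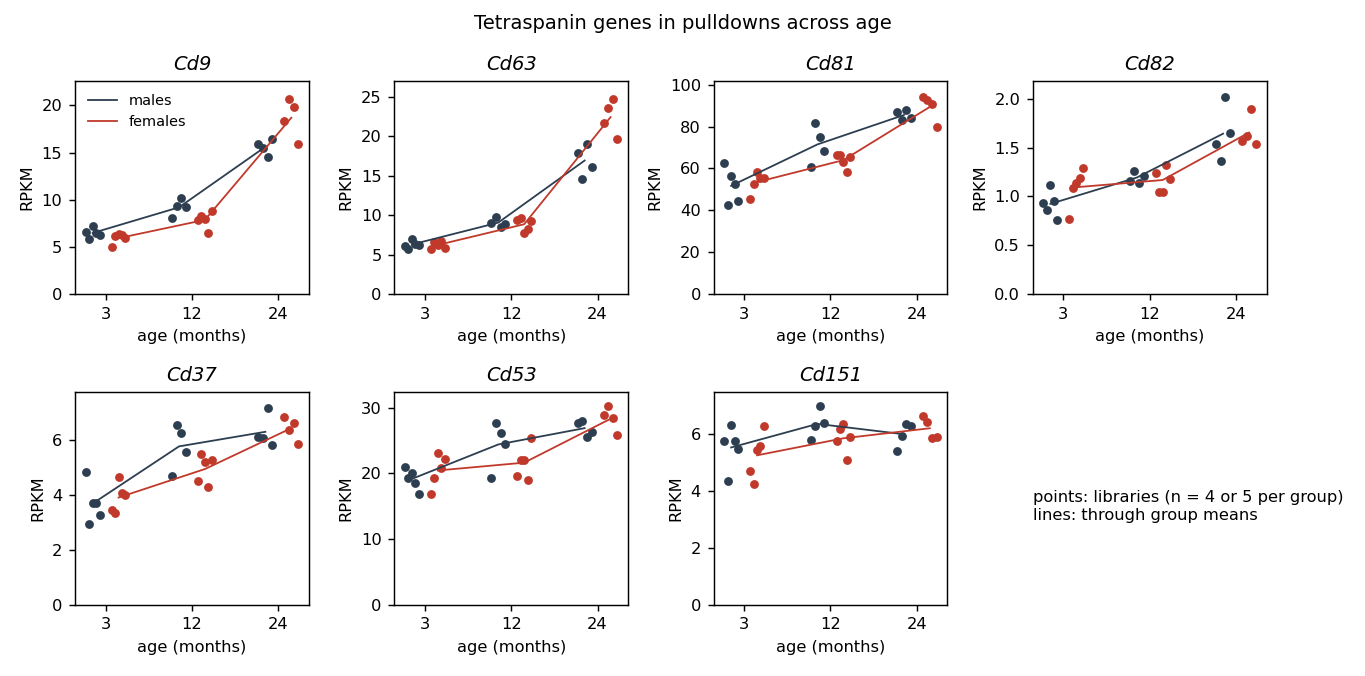
RPKM of the 7 tetraspanin genes in male and female pulldowns at 3, 12 and 24 months, with points for libraries (n = 4 or 5 per group) and lines through group means, the ages drawn at equal steps. Cd63 reaches 14.6 to 19.1 RPKM in males and 19.7 to 24.8 RPKM in females of 24 months, and Cd151 stays within overlapping ranges.

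Between the ageing effects of males and females limma's interaction term called no member, where 0.0916% of genes were called. Cd9 and Cd63 had an unadjusted p under 0.05, with a male minus female difference of -0.35 ± 0.11 for Cd9 and -0.40 ± 0.11 for Cd63 (limma adjusted p = 0.171 and 0.122). Their intervals of 2 standard errors ran from -0.57 to -0.13 and from -0.61 to -0.19, below 0 in both. For Cd81, Cd37 and Cd53 the differences were -0.0034 ± 0.13, 0.04 ± 0.14 and 0.01 ± 0.13. Averaged over the 3 ages no member was called between males and females, where 2.99% of genes were called, and 1, Cd63, had an unadjusted p under 0.05, at -0.11 ± 0.04.

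Of 14 other tetraspanins tested, Upk1b and Tspan4 were called higher at 24 months in both sexes. Of all genes tested 17.2% were called higher at 24 months in males and 16.7% in females. Upk1b had 1.06 ± 0.09 in males and 0.52 ± 0.09 in females, and already 1.03 ± 0.09 and 0.44 ± 0.08 at 12 months, while Tspan4 had 0.39 ± 0.07 and 0.24 ± 0.07 at 24 months. Tspan12 was lower in males at 24 months, at -0.24 ± 0.07. Partner genes had 8 of 16 called higher in males and 6 of 16 in females, with Clec7a at 1.30 ± 0.08 and 2.20 ± 0.08 and Itgb2 at 0.83 ± 0.09 and 0.76 ± 0.09, and 1 called lower in each sex. Exosome and endosome sorting genes had 10 of 19 called higher in males and 8 of 19 in females and 0 lower, with Cd68 at 1.17 ± 0.12 and 1.43 ± 0.12 and the lysosomal membrane gene Lamp1 at 0.80 ± 0.06 and 0.71 ± 0.06. Sdcbp, whose product syntenin binds tetraspanins and loads vesicles, had 0.39 ± 0.04 in females.

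**Figure D5:**
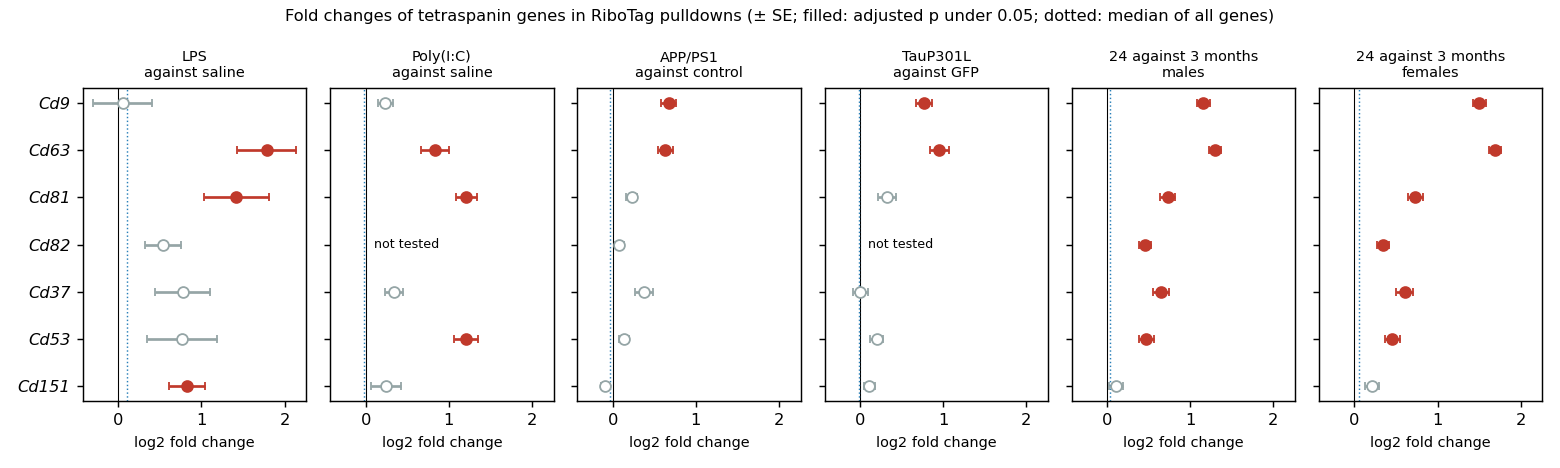
Log2 fold changes of RPKM + 1 (± SE) of the 7 tetraspanin genes in 6 comparisons of RiboTag pulldowns, filled where limma's adjusted p was under 0.05, with a dotted line at the median of all genes tested. Cd63 is filled in all 6 comparisons, from 0.63 in APP/PS1 mice to 1.78 after LPS, and Cd9 in 4, without LPS and Poly(I:C).

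Set in order over all 17 groups, most neighbouring groups overlapped, 12 to 14 of the 16 neighbouring pairs for each member. These levels cross studies of different age, treatment and pulldown purity, and the order was not tested. Cd9 was highest in APP/PS1 pulldowns at 22.9 ± 3.14 RPKM, followed with overlap by saline sorted cells at 21.7 ± 7.65, LPS sorted cells at 19.5 ± 1.77 and females of 24 months at 18.7 ± 2.10, and was lowest in Poly(I:C) pulldowns at 3.07 ± 0.147, their saline pulldowns at 2.45 ± 0.185 and the input at 1.76 ± 0.384, which stood apart from each other. Cd63 was highest in LPS sorted cells at 36.5 ± 20.1 and LPS pulldowns at 32.1 ± 2.88 and lowest in saline pulldowns of the Poly(I:C) study at 3.72 ± 0.726 and the input at 3.68 ± 0.547 RPKM. After LPS Cd63 was called and Cd9 was not, and the difference between the genes was not tested.

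Cd81 ranged between 267 ± 16.3 RPKM in LPS sorted cells and 18.3 ± 1.15 in saline pulldowns of the Poly(I:C) study, which overlapped the input at 18.8 ± 2.59. Cd53 ranged between 216 ± 89.5 in LPS sorted cells and 1.39 ± 0.191 in the input, with 103 ± 8.76 in LPS pulldowns and 19.1 ± 1.56 in males of 3 months. Cd37 ranged between 26.3 ± 4.15 in saline sorted cells and 0.132 ± 0.0552 in the input, and Cd82 between 5.71 ± 5.53 in LPS sorted cells and 0.174 ± 0.0286 in the input. Cd151 was the most even of the 7 among pulldowns, where its highest group mean, 8.59 ± 0.624 RPKM in APP/PS1 controls, was 2.65 times its lowest, against 5.80 to 9.80 times for the other members.

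Patterns were also compared within studies, as Pearson correlations of log2(RPKM + 1) over the 60 pulldowns after subtracting each study's mean. They are descriptions, since libraries share their study, depth and pulldown purity. Among 4446 genes averaging 5 RPKM or more, those most like Cd9 were the lysosomal protease gene Ctsd (r = 0.935), Apoe (0.934), which encodes the main lipid carrier of the brain, and the lipid receptor gene Trem2 (0.925). Most like Cd63 were the protease gene Ctsb (0.955), Tyrobp (0.949), which encodes the signalling adaptor of TREM2, and the lysozyme gene Lyz2 (0.949). Cd81 was closest to the complement genes C1qb (0.977) and C1qc (0.976) and to Itgb2 (0.974), and Cd53 to Ehd4 (0.957), Nckap1l (0.956) and Ly86 (0.954).

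Cd37 was closest to Tcn2 (0.936), H2-DMa (0.933) and Ctsa (0.923), Cd82 to Man2b1 (0.859), H2-DMa (0.858) and Eif4b (0.850), and Cd151 to Rhog (0.858), Ifngr2 (0.848) and Cdkn1a (0.847). Against the mean of the disease-associated list, r was 0.934 for Cd9 and 0.901 for Cd63 and 0.380 to 0.710 for the other members. Against the mean of the homeostatic list it was 0.950 for Cd53, 0.908 for Cd81 and 0.851 for Cd37. It was 0.765 for Cd82, 0.759 for Cd63, 0.674 for Cd151 and 0.665 for Cd9. Among the members themselves Cd81 and Cd53 were most alike (r = 0.907), and Cd9 and Cd151 were least alike (0.350). Cd63 was closer to Cd81 (0.876) than to Cd9 (0.844).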

How the data were processed

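RNA of 70 libraries was sequenced, and the table deposited by the authors gives RPKM per gene and library. CASAVA, TopHat2 and featureCounts with mm10 are named per the submitters' processing notes, and their versions, strand setting and roles are not given in the sources used here. Reads from overlapping or antisense genes therefore cannot be told apart. RPKM steps gave whole reads (within 0.01 read) for 100.0% of values, with 20.5 to 47.2 M reads in genes and an RPKM denominator of 49.5 to 119.9 M per library. What the denominators count beyond the reads in genes is not given. Date-like symbols, 27 of them, were restored. Of the columns of values 0 were unmapped.

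Here log2(RPKM + 1) was fitted with limma 3.58.1 (eBayes with trend, R 4.3.3) for genes averaging 1 RPKM or more over the fitted libraries, with Benjamini-Hochberg adjustment over all genes, each comparison on its own groups and the 6 ageing groups in 1 fit. There were 16 comparisons, 4 of them differences of effects. Tables and plots used Python 3.11.15, pandas 2.3.3, numpy 2.4.6 and matplotlib 3.10.9. The code was tested on simulated data. Alternatives were a pseudocount of 0.1, no filter, a filter of 5 RPKM, median-of-ratios scaling, voom on recovered reads, a replicate block, covariates for carry-over and homeostatic level, array weights, a shared fit and leaving out libraries. The members and gene lists were chosen with earlier results of these data known. Genes named from the other tetraspanin, partner and sorting lists are among the 3 with the smallest p per list and comparison; like genes were the 3 with the highest r.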

Additional observations from a re-analysis of the deposited data

Results flagged for a closer look

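Of 84 sets of 4 or 5 libraries of a group and member examined, 4 had 1 library farther from the others than Dixon's 95% limit, and chance flags about 1 in 20. GFP library 5 was high for both Cd9 and Cd63. It had 9.20 RPKM of Cd9, where the other GFP libraries had 5.93 to 6.55, and 7.86 RPKM of Cd63, where the others had 4.64 to 5.54. The tau calls of both genes held without it. Female library 1 of 3 months had 5.00 RPKM of Cd9, against 5.95 to 6.32 in the others. Input library 2 had 1.03 RPKM of Cd151, against 1.32 to 1.37 in the others.

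Among the genes of the tetraspanin partner and sorting lists, 2 effects differed between studies or sexes by limma's interaction term. The APP/PS1 effect on Rab27a was lower than the TauP301L effect by a difference of -0.38 ± 0.09 (limma adjusted p = 0.0475). The ageing effect on Clec7a was lower in males than in females, with a difference of -0.90 ± 0.11 (limma adjusted p = 0.00011).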

How the results depend on the processing

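Over all comparisons, 39 of 108 tested pairs of member and comparison were called. In the other settings 741 values kept their direction and call, 43 lost and 9 gained a call, and 3 called values changed sign. For the called pairs, fits with 1 library left out kept both in 643 cases and lost the call in 25. Calls were gained for Cd81 in the tau comparison without GFP library 5 (limma adjusted p = 0.0322), for Cd151 in females at 24 months in 2 such fits (without female library 5 or male library 2 of 3 months) and for Cd82 in males at 12 months in 2 (without female library 1 or male library 3 of 3 months).

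In the LPS pulldowns 3 members were called, and 1 with a pseudocount of 0.1, 0 without a filter, 1 with the replicate block, 1 without saline libraries 3 and 4, 0 in the fit shared with sorted cells, and 0 to 3 with libraries left out. The shared fit called 1 member in sorted cells, where none was called otherwise. Against sorted cells it was 4, and 2 with the replicate block and 2 to 4 with libraries left out. The voom fit called 4 members, not 2, in the APP/PS1 and in the tau comparison. In females at 12 months, 1 rather than 2 members were called with the carry-over covariate and when only the compared groups were fitted. In males at 12 months the fit of only the compared groups called 3 rather than 5. The homeostatic covariate left 0 calls after Poly(I:C), 3 in females and 2 in males at 24 months and 0 in males at 12 months. With it Cd63 turned to -0.15 after Poly(I:C), and Cd53 in males to -0.088 at 24 and -0.067 at 12 months. The causes were not tested.

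No comparison had a correlation of deviations from the group mean over 0.1 in every same-numbered pair, so numbers were not taken as pairs. Single pairs reached 0.13 after Poly(I:C) and 0.13 in males of 24 against 3 months, while LPS pulldowns had -0.54 to -0.25. In groups of 3 to 5 libraries such a check cannot exclude pairing. With the replicate block no member was called in the tau comparison, where Cd9 had 0.75 (limma adjusted p = 0.0906) and Cd63 0.98 (adjusted p = 0.0893), and the genes called fell to 22, against 161. In the LPS pulldowns the block gave 744 genes against 1720, and in APP/PS1 mice 47 against 189. Groups of 3 to 5 libraries and, for Cd82 and Cd37 in the input, few reads limit what can be seen.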
